A study of Mus musculus with 9 samples.

Results

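The genes described here form the amino acid branch of the ATF4 response together with the serine and folate one-carbon pathway. They are 36 genes of the 23337 gene symbols in the count table, and they were taken from a list of symbols by their known role, drawn up when earlier results of these data were known. The list holds 6 regulators (Atf4, Atf3, Atf5, Ddit3, Trib3 and Nupr1), 5 further stress-response effectors, 4 genes of asparagine, alanine and proline synthesis, 3 of serine synthesis, 8 of folate metabolism, 2 of transsulfuration and 8 amino acid transporters. All 36 had at least 1 count in the libraries of each comparison and were tested in each. Of these, 34 had a mean of at least 20 counts per library. Aldh1l1 and Cbs were low, with 1 to 8 counts and 0 to 3 counts per library. They enter the counts and medians of sets of members, and no direction is drawn from either alone.

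The study asked how the LAP and LIP isoforms of the transcription factor C/EBPβ change gene expression. RNA came from immortalised mouse embryonic fibroblasts (MEFs) of mixed C57BL/6 and 129 background that lack C/EBPβ, so the Cebpb knockout was common to all groups. The cells were stably transfected with an empty vector (EV), with rat LAP or with rat LIP, carried on a plasmid and kept under Zeocin selection, and 3 libraries were sequenced per group, 9 in all. Neither the labels nor the methods say whether the 3 libraries of a group came from separate cultures or clones, so the p-values measure the spread between these libraries, which may be technical. The labels give no endoplasmic reticulum stress, amino acid starvation or other challenge for any group.

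ATF4 is a basic leucine zipper factor whose mRNA is translated more efficiently when eIF2α is phosphorylated, so its protein can change without a change of its mRNA. It binds DNA as a dimer, often with a member of the C/EBP family, at a composite C/EBP-ATF element that joins part of a C/EBP site to part of an ATF site, and its targets import and make amino acids, charge tRNAs and feed the mitochondrial folate cycle. LAP carries the transactivation domains of C/EBPβ, whereas LIP starts further downstream in the same reading frame and keeps the DNA-binding and dimerisation domain without them.

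The composite element is shown here in 5 members because C/EBP proteins and ATF4 can share it. Its core TGATGNAA was searched on both strands, without regard to overlap with other motifs, in the RefSeq promoter windows of GRCm38.p6 that run from 250 bases before to 50 bases after a transcript start. Of the 36 members, 30 had a window and 9 of these held the core, in 9 of 34 member windows, against 3.97% of all 32851 windows. The stricter form TGATGCAA was present in 7 of the 30 members and in 0.895% of all windows. Many members are on the list because they are known ATF4 targets, so these shares only describe the list. The 250 bases upstream of the start are given 5′ to 3′ on the strand of the gene, with the core in capitals, and a core on the opposite strand reads TTGCATCA. Nupr1 lies at chr7:126625471-126625720 on the minus strand, with its core starting 110 bases before the start. The window of Slc7a11, at chr3:50443614-50443863 on the minus strand, belongs to a transcript start inside the annotated gene and holds the core once on each strand, 66 and 47 bases before the start. Asns, at chr6:7693210-7693459 on the minus strand, holds the form with A in the variable position, 23 bases before the start. Chac1 lies at chr2:119350992-119351241 on the plus strand and Atf3 at chr1:191183334-191183583 on the minus strand.
Nupr1: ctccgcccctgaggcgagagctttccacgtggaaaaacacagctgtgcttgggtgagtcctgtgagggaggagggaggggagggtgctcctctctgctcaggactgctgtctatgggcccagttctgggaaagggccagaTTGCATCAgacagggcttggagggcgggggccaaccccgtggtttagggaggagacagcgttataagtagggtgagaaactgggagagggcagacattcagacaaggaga
Slc7a11: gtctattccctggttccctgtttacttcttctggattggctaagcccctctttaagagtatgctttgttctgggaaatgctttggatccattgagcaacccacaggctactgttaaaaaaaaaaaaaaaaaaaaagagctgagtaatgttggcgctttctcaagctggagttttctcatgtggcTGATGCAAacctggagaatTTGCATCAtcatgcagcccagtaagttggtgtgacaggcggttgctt
Asns: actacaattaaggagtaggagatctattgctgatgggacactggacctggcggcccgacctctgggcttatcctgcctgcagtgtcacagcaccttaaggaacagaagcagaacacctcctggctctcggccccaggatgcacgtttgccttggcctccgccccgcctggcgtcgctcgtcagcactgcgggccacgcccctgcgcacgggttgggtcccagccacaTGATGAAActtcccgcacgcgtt
Chac1: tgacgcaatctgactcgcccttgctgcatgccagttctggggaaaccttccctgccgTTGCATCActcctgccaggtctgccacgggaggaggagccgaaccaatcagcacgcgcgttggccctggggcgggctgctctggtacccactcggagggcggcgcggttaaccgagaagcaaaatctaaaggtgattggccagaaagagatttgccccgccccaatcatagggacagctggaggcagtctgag
Atf3: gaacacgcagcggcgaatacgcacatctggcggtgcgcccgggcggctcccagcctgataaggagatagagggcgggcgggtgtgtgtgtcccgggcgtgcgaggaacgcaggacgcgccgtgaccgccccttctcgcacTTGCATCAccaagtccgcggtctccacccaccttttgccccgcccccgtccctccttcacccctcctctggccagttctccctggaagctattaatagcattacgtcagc

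The other members with the core were Trib3 (in the form TGATGTAA, 15 bases after the start), Slc1a4 (4 bases before it), Pycr1 (103 bases before it) and Vldlr (200 bases before it). Pycr1 and Vldlr hold TGATGCAA upstream of the start, and their log2 fold changes of LIP against EV were 0.11 and -0.14. The members printed above lay between -1.20 and -0.38, so they do not stand for all 9. Aldh1l2 and Cth, which carried large differences below, had no window and were not searched, and the absence of the core from a window says only that these letters are not there. The median log2 fold change of LIP against EV was -0.38 over the 9 members with the core and -0.18 over the 21 with a window and without it. The values overlapped, from -1.20 to 0.11 with the core and from -1.21 to 0.20 without it. The 21 include the low Aldh1l1 and Cbs, and a link between the core and the fold change was not tested.

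**Figure D1:**
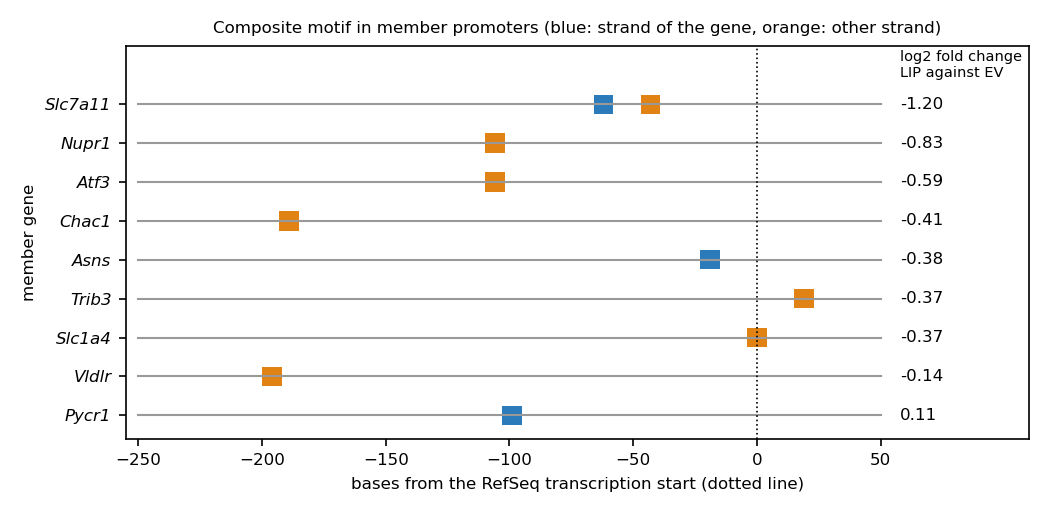
Positions of the composite C/EBP-ATF core in the promoter windows of 9 members, in bases from the RefSeq transcript start (x axis, dotted line at the start), with a box 8 bases wide on the strand of the gene in blue or on the other strand in orange. The column at the right gives the log2 fold change of LIP against EV, from -1.20 for Slc7a11 to 0.11 for Pycr1.

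Counts on genes totalled 24839139 to 33522082 per library, and 3 counts stood for 0.0895 to 0.121 CPM (counts divided by the library total and set to a common scale), a floor that covers counting error alone. The CPM values of the genes also use edgeR's TMM factors, which lay between 0.949 and 1.10. Libraries of a group were alike across the 11535 genes whose mean count reached 20, with Pearson's r of log2(CPM + 0.5) of 0.990 to 0.995 in EV, 0.977 to 0.986 in LAP and 0.970 to 0.979 in LIP, although genes are not independent replicates. All 10 fibroblast markers examined were detected. Of 13 markers of other cell types in the table, 4 were at 0 in every library (Ptprc, Pecam1, Plin1 and Myod1), whereas the epithelial keratin Krt8 had 387 to 792 CPM. Counts in this table varied with the number of RefSeq transcripts of a gene, so levels are compared between groups and not between genes. In bulk RNA, fewer cells of a type and less RNA per cell cannot be told apart.

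The comparison of LIP with EV asks what the short isoform changed in cells without C/EBPβ. Aldh1l2, the mitochondrial 10-formyltetrahydrofolate dehydrogenase, and Nupr1, a small stress-induced chromatin protein, were lower in LIP and were the 2 of 36 members past an adjusted p of 0.05, with 0 higher. Over all 18203 genes tested, 0.33% were called lower (quasi-likelihood test of edgeR, adjusted after Benjamini and Hochberg). At an unadjusted p under 0.05, 8 members were lower and 0 higher, against 6.75% of all genes lower. The LIP libraries lay wholly below the EV libraries for 11 members, against 8.83% of all genes tested, and wholly above for 0. Among the 11535 genes whose mean reached 20 counts, as it did for 34 members, 0.503% were called lower, 8.89% were lower at an unadjusted p under 0.05 and 11.2% lay wholly below EV. The log2 fold change was below 0 for 32 of 36 members (31 with scaling by total counts alone, where Slc38a2 moved from -0.036 to 0.0039), against 46.0% of all genes, and its median was -0.31 over the members and 0.04 over all genes. Without LIP library 2 the median over the members was -0.18. Fibroblast markers moved with the members. The summed level of the 10 fibroblast markers was 27202 to 29561 CPM in EV, 24422 to 32789 CPM in LAP and 12751 to 21113 CPM in LIP, and their part in the result was not tested.

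**Figure D2:**
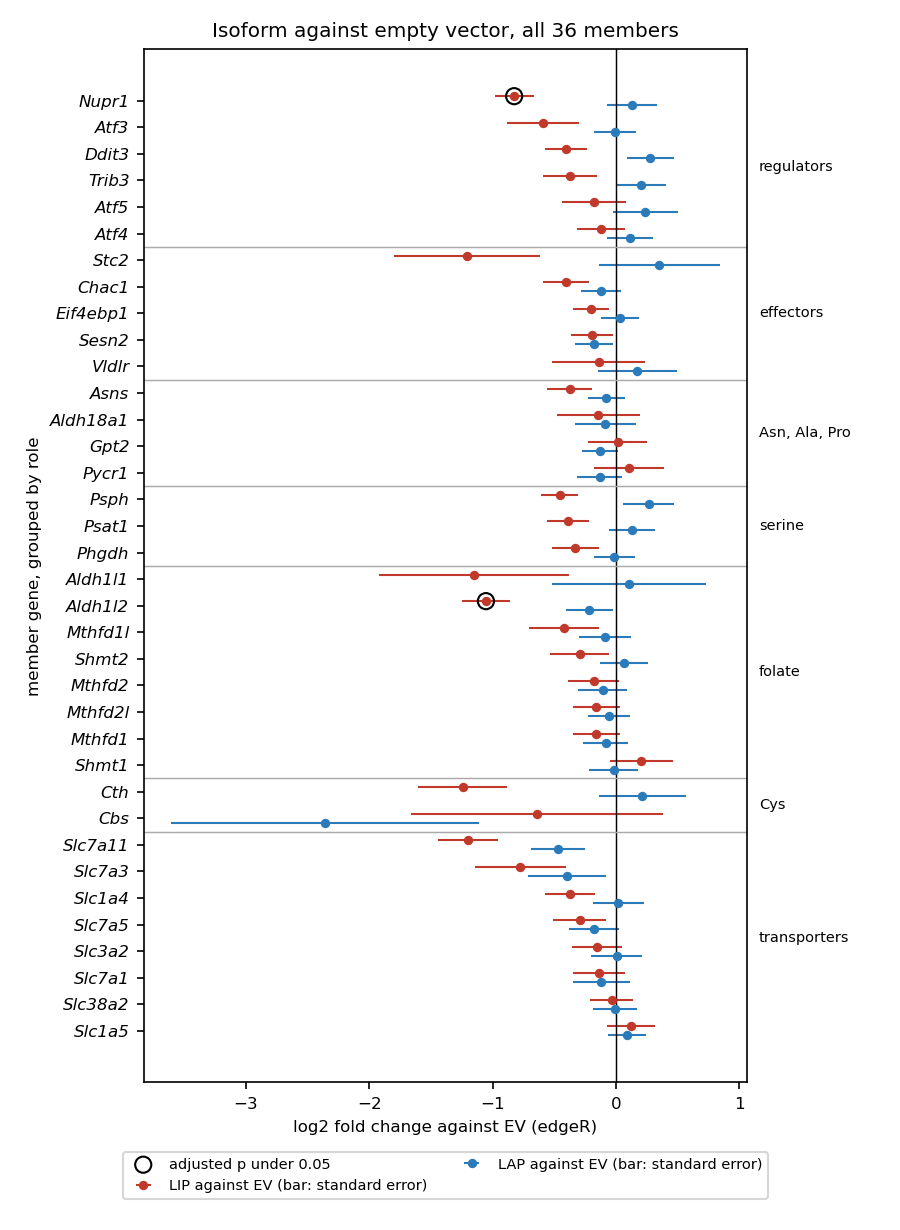
Log2 fold change against EV (x axis, edgeR) of all 36 members, grouped by role, for LIP in red and LAP in blue, with bars of 1 standard error. Open circles mark an adjusted p under 0.05, which held for Nupr1 and Aldh1l2 in LIP. Red points lie left of 0 for 32 members and blue points for 20.

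Among the regulators, Nupr1 (chromosome 7, 126623246 to 126625470, minus strand) had 41.4, 40.3 and 44.6 CPM in EV and 25.7, 23.8 and 21.7 CPM in LIP. The groups were well apart and each was tight. Nupr1 was 1.77-fold lower, or -0.83 on the log2 scale (standard error 0.16), with an adjusted p of 0.0481 from edgeR. Atf4 itself (chromosome 15, 80255184 to 80257545, plus strand) had 411, 433 and 348 CPM in EV and 421, 396 and 278 CPM in LIP. Its values overlapped, and its log2 fold change of -0.12 had a 95% interval from -0.54 to 0.30 (adjusted p = 0.832 from edgeR). At the mRNA level a change of Atf4 was thus not detectable with these libraries.

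Ddit3, which encodes CHOP, a C/EBP family member that dimerises with other C/EBP proteins (chromosome 10, 127290793 to 127296291, plus strand), had 22.5, 21.9 and 25.3 CPM in EV and 17.3, 18.6 and 16.8 CPM in LIP. The groups did not overlap, but the log2 fold change of -0.40 (standard error 0.17) did not pass the threshold (adjusted p = 0.410 from edgeR). Exons of Ddit3 overlap those of Mars on the opposite strand, and the strand setting of the counting is not given in the sources used here. Trib3, a pseudokinase induced by ATF4 and CHOP (chromosome 2, 152337425 to 152344060, minus strand), had 16.7, 17.4 and 14.1 CPM in EV and 15.0, 9.08 and 13.1 CPM in LIP, with overlap. The remaining regulators were Atf3, at 13.3 ± 0.608 CPM in EV (SD, n = 3) against 8.82 ± 3.85 CPM in LIP (SD, n = 3), and Atf5, with a log2 fold change of -0.18. All 6 regulators had values below 0 under the 3 scalings tried, with a median of -0.39, and Nupr1 was the 1 that passed.

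The 3 enzymes that make serine from 3-phosphoglycerate were described in every library. Phgdh, the first step (chromosome 3, 98313171 to 98339969, minus strand), had 387, 414 and 364 CPM in EV and 394, 253 and 279 CPM in LIP. LIP library 1 lay within the EV range and the other LIP libraries below it. As 47.8% of the 50-base stretches of Phgdh transcripts also occur in transcripts of another gene, mostly Gm7901, its counts are uncertain. Psat1, the aminotransferase of the second step (chromosome 19, 15905123 to 15925059, minus strand), had 27.5, 27.6 and 24.3 CPM in EV and 22.7, 17.9 and 20.1 CPM in LIP, without overlap. Psph, the phosphatase of the last step (chromosome 5, 129765558 to 129787443, minus strand), had 63.0, 62.5 and 57.1 CPM in EV and 49.4, 41.4 and 42.1 CPM in LIP, also without overlap. Their log2 fold changes were -0.33 for Phgdh, -0.39 for Psat1 and -0.46 for Psph (standard errors 0.19, 0.17 and 0.15). None of the 3 passed the threshold (adjusted p = 0.583, 0.440 and 0.262 from edgeR), while Psat1 and Psph were at an unadjusted p of 0.0430 and 0.00996 from the same test. Exons of Psph overlap those of Cct6a on the opposite strand.

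In folate metabolism, Aldh1l2 (chromosome 10, 83487447 to 83534146, minus strand), which oxidises 10-formyltetrahydrofolate in mitochondria and yields NADPH, had 134, 144 and 145 CPM in EV and 55.2, 57.7 and 90.5 CPM in LIP. LIP library 3 was the highest of its group and still below each EV library. Aldh1l2 was 2.08-fold lower, or -1.05 on the log2 scale (standard error 0.19), with an adjusted p of 0.0401 from edgeR. For Aldh1l2, 13.6% of the 50-base stretches are shared, mostly with D10Wsu102e, whose exons overlap on the opposite strand. The neighbouring mitochondrial steps did not pass the threshold. Shmt2, the mitochondrial serine hydroxymethyltransferase (chromosome 10, 127517123 to 127522444, minus strand), had 6.44, 6.79 and 6.62 CPM in EV and 6.90, 4.32 and 4.97 CPM in LIP, and its log2 fold change of -0.30 had a 95% interval from -0.82 to 0.23. Mthfd2, the mitochondrial methylenetetrahydrofolate dehydrogenase and cyclohydrolase (chromosome 6, 83305704 to 83326011, minus strand), had 165, 156 and 110 CPM in EV and 163, 115 and 103 CPM in LIP, with a 95% interval of the log2 fold change from -0.63 to 0.27. Both overlapped between the groups. Of the other folate genes, Mthfd1l, the mitochondrial formate-releasing synthetase, was the 1 without overlap (log2 fold change -0.42), and Shmt1, the cytosolic hydroxymethyltransferase, was the 1 above 0 (log2 fold change 0.20).

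Cth, cystathionine gamma-lyase, which makes cysteine in the last step of transsulfuration (chromosome 3, 157894248 to 157925081, minus strand), had 18.1, 14.8 and 13.4 CPM in EV and 9.10, 7.83 and 2.62 CPM in LIP. The groups did not overlap, and LIP library 3 lay far below the other LIP libraries. Its log2 fold change of -1.24 (standard error 0.36) had an adjusted p of 0.188 in edgeR. Slc7a11, the cystine importer xCT (chromosome 3, 50364936 to 50499087, minus strand), had 20.03, 21.8 and 34.3 CPM in EV and 13.1, 8.81 and 11.2 CPM in LIP. Here EV library 3 stood above the other EV libraries, and the groups were still apart. Its log2 fold change was -1.20 (standard error 0.24), just short of the threshold with an adjusted p of 0.0586 from edgeR. Cth, Stc2 and Slc7a11 had the largest log2 fold changes among the 34 members with enough counts, and none of the 3 passed without regard to replicate numbers. Slc3a2, which encodes the heavy chain that xCT needs, had 23.3 ± 4.96 CPM in EV (SD, n = 3) against 20.9 ± 2.83 CPM in LIP (SD, n = 3).

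The other transporters showed smaller values. Slc7a3, a cationic amino acid transporter, had a log2 fold change of -0.78 with overlap between the groups, and Slc1a4, which carries alanine, serine, cysteine and threonine, had -0.37. The leucine carrier Slc7a5, the arginine carrier Slc7a1, the glutamine carriers Slc1a5 and Slc38a2 and Slc3a2 lay between -0.29 and 0.12. Of the 8 transporters, 7 were below 0 (6 with total counts alone) and 0 passed the threshold.

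Asns, asparagine synthetase (chromosome 6, 7675165 to 7693209, minus strand), had 182, 195 and 202 CPM in EV and 158, 113 and 175 CPM in LIP. The groups did not overlap, and LIP library 2 was the lowest. Its log2 fold change of -0.38 (standard error 0.18) had an adjusted p of 0.471 in edgeR. The other genes of this group were split, with Aldh18a1, the first enzyme of proline synthesis, at -0.14, Gpt2, mitochondrial alanine transaminase, at 0.01 and Pycr1, which completes proline synthesis, at 0.11. In Gpt2 and Pycr1, LIP library 3 had 131 and 37.0 CPM and lay above each EV library, whereas LIP library 1 lay below each of them.

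Stc2, a secreted glycoprotein induced by ATF4 (chromosome 11, 31359441 to 31370061, minus strand), varied more between libraries than between groups. It had 14.2, 6.46 and 4.86 CPM in EV, 20.4, 8.84 and 3.37 CPM in LAP and 7.47, 2.85 and 0.807 CPM in LIP. In each group the library numbered 1 was the highest and the library numbered 3 the lowest. LIP differed from EV by -1.21 on the log2 scale with a standard error of 0.59 (adjusted p = 0.489 from edgeR). This value rested on single libraries, since it was -0.61 without EV library 1, -0.72 without LIP library 3 and -2.21 without LIP library 1. The remaining effectors were Chac1, which degrades glutathione, at -0.41 (unadjusted p = 0.0475 from edgeR), Eif4ebp1, the repressor of cap-dependent translation, at -0.20, Sesn2, a leucine-sensing inhibitor of mTORC1, at -0.20, and Vldlr, a lipoprotein receptor, at -0.14. LIP lay wholly below EV in Eif4ebp1 and overlapped with EV in the other effectors.

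**Figure D3:**
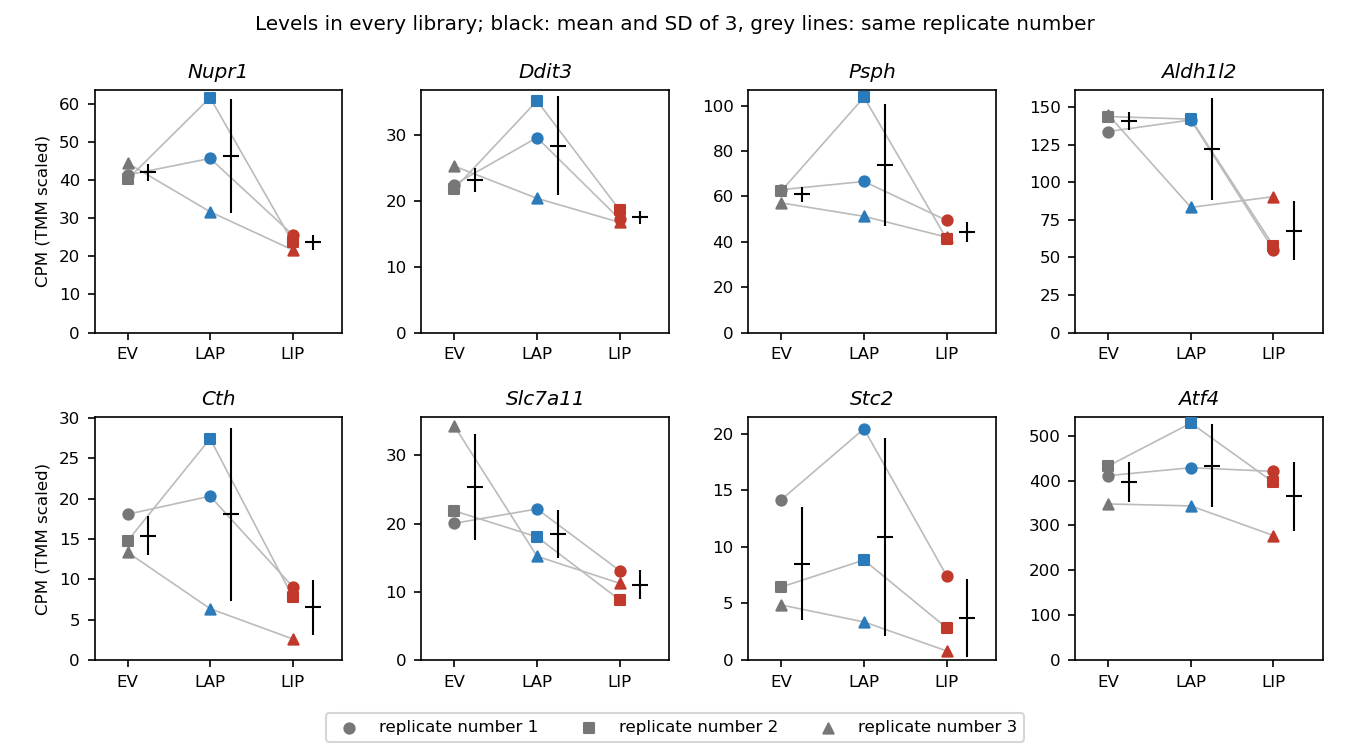
Levels in CPM (y axis, from 0) of 8 members in each of the 9 libraries by group, with marker shapes for the replicate number and grey lines that join libraries of the same number; black marks give the mean and SD of 3 libraries. Nupr1 lies at 21.7 to 25.7 CPM in LIP and at 40.3 to 44.6 CPM in EV, while Atf4 overlaps between all groups.

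Both calls lay close to the threshold and did not hold throughout. The adjusted p of Aldh1l2 ranged from 0.000767 to 0.178 over 14 alternative settings, 5 of them past the threshold, and that of Nupr1 from 0.000241 to 0.193, with 5 past it. Slc7a11, not called, passed in 6 of 14. Leaving out EV library 1, 2 or 3 or LIP library 1 or 2 ended the call of Aldh1l2 (adjusted p = 0.0566, 0.168, 0.0675, 0.0645 and 0.0894 from edgeR), and leaving out EV library 1, 2 or 3 or LIP library 2 ended that of Nupr1 (adjusted p = 0.144, 0.193, 0.126 and 0.0792). Slc7a11 passed without EV library 1 or without LIP library 3 (adjusted p = 0.0389 and 0.0240). A single gene also cannot go below p = 0.1 in the two-sided exact permutation test of 3 against 3 libraries, the value that all 11 members without overlap had.

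The comparison of LAP with EV asks what the long isoform changed. In this comparison 0 of 36 members passed an adjusted p of 0.05 (edgeR's quasi-likelihood test, 0 also by DESeq2's Wald test and by the edgeR exact test), against 0.0606% of 18156 genes tested. At an unadjusted p under 0.05 there was 1 member, Slc7a11, lower in LAP, against 3.27% of all genes. No member had groups without overlap (0 of 36), against 7.57% of all genes. The median log2 fold change of the members was -0.01 and 20 of 36 were below 0, beside a median of 0.02 and 47.8% below 0 over all genes. In the model with the replicate number as a block, 0 members passed as well.

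Slc7a11 had 22.1, 18.0 and 15.2 CPM in LAP, which overlapped with EV, and a log2 fold change of -0.47 (standard error 0.22, unadjusted p = 0.0489, adjusted p = 0.918 from edgeR). The log2 fold change was above 0 for 5 of 6 regulators (all 6 with DESeq2's size factors, where Atf3 moved from -0.0059 to 2.8e-05) and for 2 of 3 serine enzymes, without passing. It was below 0 for 4 of 4 asparagine, alanine and proline genes, 6 of 8 folate genes and 5 of 8 transporters. Also below 0 were 2 of 5 effectors and 1 of 2 transsulfuration genes. Ddit3 had 29.7, 35.2 and 20.4 CPM in LAP (log2 fold change 0.28) and Psph had 66.6, 104 and 51.2 CPM (log2 fold change 0.26). In both genes LAP library 2 was the highest and LAP library 3 the lowest of all EV and LAP libraries. Nupr1 showed the same order, with 45.8, 61.7 and 31.7 CPM in LAP, and its log2 fold change of 0.13 had a 95% interval from -0.30 to 0.56. Atf4 had 429, 528 and 344 CPM in LAP, with a log2 fold change of 0.11. For Trib3 the LAP values were 20.9, 21.8 and 13.1 CPM, and for Psat1 they were 26.4, 38.2 and 23.0 CPM, again with LAP library 3 below each EV library.

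Aldh1l2 had 142, 142 and 83.3 CPM in LAP. LAP libraries 1 and 2 lay within the EV range and LAP library 3 was well below it (log2 fold change -0.22). Cth had 20.3, 27.5 and 6.36 CPM in LAP, with LAP library 3 again below each EV library and the other LAP libraries above them (log2 fold change 0.21, standard error 0.35). Asns had 189, 178 and 186 CPM in LAP, Phgdh 414, 392.4 and 355 CPM, Shmt2 7.74, 6.22 and 6.88 CPM and Mthfd2 163, 133 and 107 CPM. The log2 fold changes of these 4 genes lay between -0.11 and 0.06. The 95% interval was -0.37 to 0.34 for Phgdh and -0.40 to 0.24 for Asns.

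LIP and LAP were also compared directly, since comparisons with the same EV libraries do not test their difference. Without regard to replicate numbers 0 of 36 members passed (edgeR's quasi-likelihood test), against 0.837% of 18166 genes called lower. DESeq2's Wald test and the edgeR exact test each called 1 member, Nupr1, beside 198 and 184 genes called lower over all genes. At an unadjusted p under 0.05, 8 members were lower in LIP and 0 higher, against 5.98% of all genes lower, and LIP lay wholly below LAP for 7 members, against 6.9% of all genes. These were Asns, Ddit3, Eif4ebp1, Nupr1, Psat1, Psph and Slc7a11. Over the 11534 tested genes whose mean reached 20 counts, the shares were 1.14% called lower, 7.68% lower before adjustment and 7.95% wholly below LAP. The log2 fold change was below 0 for 31 of 36 members, against 47.4% of all genes. With total counts alone these were 28 members, as Sesn2, Slc7a1 and Slc38a2 moved above 0, and 7612 of 18166 genes. The median log2 fold change was -0.30 over the members, beside 0.02 over all genes. Without LIP library 2 that median was -0.19.

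In each group the libraries are numbered 1 to 3, and LIP and LAP libraries of the same number deviated from their group means together. With the replicate number as a block, 7 members passed the threshold, all lower in LIP, and 4.79% of all genes were called lower. These 7 were Cth, Stc2, Nupr1, Aldh1l2, Psph, Slc7a11 and Ddit3, with log2 fold changes of -1.40, -1.65, -0.90, -0.84, -0.66, -0.72 and -0.64 in that order. Their standard errors lay between 0.18 and 0.24. The adjusted p from edgeR with the block was 3.20e-07 for Cth, 1.00e-07 for Stc2, 0.000195 for Nupr1, 0.00116 for Aldh1l2, 0.0104 for Psph, 0.0120 for Slc7a11 and 0.0206 for Ddit3. Without the block the log2 fold changes were -1.44 for Cth, -1.55 for Stc2, -0.94 for Nupr1, -0.83 for Aldh1l2, -0.71 for Psph, -0.72 for Slc7a11 and -0.67 for Ddit3, with standard errors between 0.24 and 0.58 and adjusted p of 0.159, 0.336, 0.0688, 0.164, 0.244, 0.286 and 0.289 in the same order. Without the block, the value of Stc2 was -0.68 without LAP library 1 and -2.56 without LIP library 1.

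Within each replicate number the LIP library was lower than the LAP library for Cth, which had 20.3 and 9.10 CPM in LAP and LIP under number 1, 27.5 and 7.83 CPM under number 2 and 6.36 and 2.62 CPM under number 3. The same was true of Stc2, whose LAP and LIP values were 20.4 and 7.47, 8.84 and 2.85, and 3.37 and 0.807 CPM. Aldh1l2 was the exception among the 7, since under number 3 LIP, with 90.5 CPM, lay above LAP, with 83.3 CPM. The fit with the block, which picked the 7, uses these same differences, so the order within numbers only describes them. Serine synthesis thus had 1 of its 3 enzymes among the 7 (Psph), whereas Psat1 and Phgdh had an adjusted p of 0.135 and 0.372 with the block. Among the regulators, Atf3 (adjusted p = 0.0517) and Trib3 (adjusted p = 0.0970) were short of the threshold with the block in edgeR, and Atf4 had a log2 fold change of -0.23 with an adjusted p of 0.649. Without LAP library 3, in the model without the block, 4 members passed (Aldh1l2, Cth, Nupr1 and Stc2) and without LIP library 3 there were 3 (Aldh1l2, Cth and Nupr1). Calls over all genes rose as well, with 344 and 310 genes lower in these fits, against 152 with every library kept.

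Libraries of the same group differed across the members. Relative to the mean of EV on the scale of log2(CPM + 0.5), the median deviation of the 34 members with enough counts was 0.12, 0.01 and -0.17 in LAP libraries 1 to 3 and -0.13, -0.54 and -0.34 in LIP libraries 1 to 3. LAP library 3 was the lowest of its group for 21 of 34 members, and LIP library 1 the highest of its group for 23. In LAP library 3, 31 members lay below the EV mean, about as many as in LIP library 2, with 30, and LIP library 3, with 29, although its deviation was smaller.

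**Figure D4:**
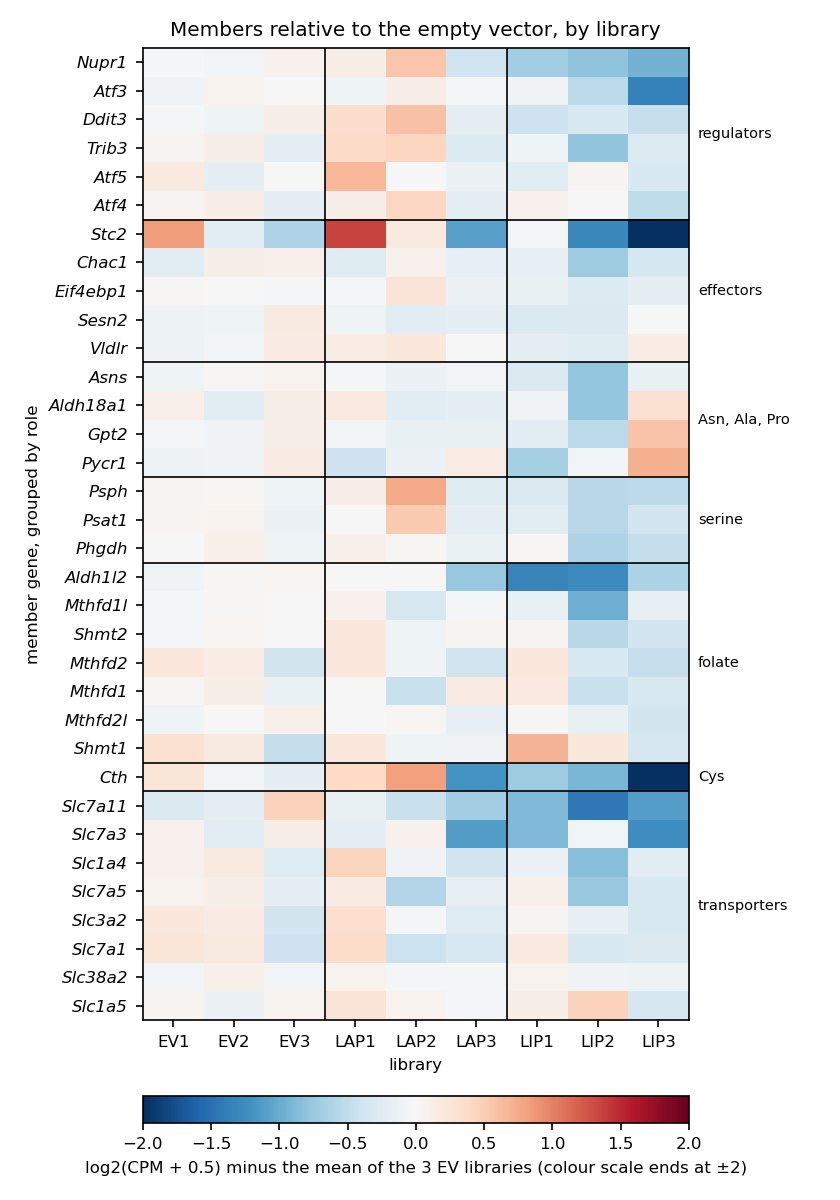
Each member (rows, grouped by role) in each library (columns), as log2(CPM + 0.5) minus the mean of the 3 EV libraries, with blue below and red above 0; Aldh1l1 and Cbs are left out for low counts. LIP libraries 2 and 3 are mostly blue, Stc2 and Cth are darkest in LIP library 3, and LAP library 3 is pale blue for most members.

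Other genes of the same pathways, from lists by function, were compared to see how far the pattern reached. Of 20 cytosolic aminoacyl-tRNA synthetases, many of them ATF4 targets, 0 passed in LIP against EV and 0 had an unadjusted p under 0.05. Their median log2 fold change was -0.13 with 17 below 0, and Yars had the smallest p (log2 fold change -0.31, adjusted p = 0.578 from edgeR). Of 10 other ATF4 targets tested, 0 passed and 4 were lower at an unadjusted p under 0.05, with a median of -0.14. Among them was Fgf21, a secreted metabolic hormone, for which EV libraries held 14 to 24 counts and LIP libraries 1, 3 and 8 (log2 fold change -2.04, standard error 0.59, adjusted p = 0.188 from edgeR). The eIF2 kinases and phosphatase subunits, which set eIF2α phosphorylation, had 0 of 7 genes at an unadjusted p under 0.05, and Eif2ak1 had the smallest p (log2 fold change 0.25).

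Of 15 other folate and methionine cycle genes, 0 passed and 0 had an unadjusted p under 0.05, with a median of 0.09. Of 7 genes of glycine cleavage and serine breakdown, 0 passed and 1 was lower at an unadjusted p under 0.05. This was Gldc, the glycine decarboxylase, which had the smallest p (log2 fold change -1.08, adjusted p = 0.201 from edgeR). Of 6 other proline and ornithine genes, 0 passed, with 1 gene below and 1 above 0 at p under 0.05 before adjustment, and Oat, ornithine aminotransferase, had the smallest p (log2 fold change -0.46, adjusted p = 0.439). Of 15 other C/EBP and ATF partners tested, 0 passed and 1 was lower at an unadjusted p under 0.05. This was Cebpd, a paralog of Cebpb, with 142 to 207 CPM in EV and 64.5 to 149 CPM in LIP (log2 fold change -0.87, adjusted p = 0.214). Of 15 other amino acid transporters, 1 passed. Slc1a3, a glutamate and aspartate importer, had 13.2, 11.0 and 13.1 CPM in EV, 18.3, 18.7 and 7.03 CPM in LAP and 4.94, 2.59 and 1.87 CPM in LIP. It was lower in LIP than in EV (log2 fold change -1.997, standard error 0.32, adjusted p = 0.0205 from edgeR) and lower than in LAP (log2 fold change -2.21, standard error 0.39, adjusted p = 0.00899).

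In LAP against EV, 0 genes of these lists of pathway genes passed, and Gldc had the smallest p among them (log2 fold change -0.86, adjusted p = 0.918 from edgeR). In LIP against LAP, Slc1a3 was the 1 pathway gene that passed without the block. With the block, Cebpd (log2 fold change -0.84), Herpud1, which acts in degradation of endoplasmic reticulum proteins, Ero1l, an oxidase of protein folding, and Oat passed as well, all lower in LIP. The fibroblast markers had 1 of 10 called in LIP against EV, Postn, a matrix protein (log2 fold change -2.40, adjusted p = 0.0481 from edgeR), with 7 of 10 lower at an unadjusted p under 0.05 and a median of -1.09. In LIP against LAP, 2 of 10 were called, Fap and Postn, with a median of -1.06, and in LAP against EV 0 of 10, with a median of -0.03. Among the markers of other cell types 0 of 9 tested passed in any of the 3 comparisons, 1 lay below and 2 above 0 in LIP against EV at p under 0.05 before adjustment, and Krt8 had 397 to 477 CPM in EV and 502 to 792 CPM in LIP.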

How the data were processed

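RNA of 9 libraries was sequenced, 3 each of EV, LAP and LIP. The authors deposited raw counts, that is reads assigned to genes by HTSeq 0.5.4 after alignment with TopHat 1.4.1 to mm10 (bcl2fastq 1.8.3 made the reads), per the submitters' processing notes, without normalization. The strand setting and the treatment of reads with several alignments are not given in the sources used here. The table has a column for each library, and 0 columns were left unassigned.

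Genes with at least 1 count in the 6 libraries of a comparison were scaled by TMM and tested without covariates by the quasi-likelihood test of edgeR 4.0.16 (R 4.3.3), with Benjamini-Hochberg adjustment over all genes tested and a threshold of 0.05. Standard errors were taken as log2 fold change over the square root of F, and 95% intervals from the t distribution with the degrees of freedom of the same test. A two-sided exact permutation test of CPM was run for single members. The procedure was tested on simulated LIP and EV counts without differences by replicate number. It recovered 63% of the genes changed by 1 on the log2 scale and 100% of those changed by 2. Smaller changes were not simulated. Positions and promoters came from RefSeq on GRCm38.p6, and stretches of 50 bases shared between genes from the GENCODE transcripts supplied. Plots were made in matplotlib 3.10.9 (Python 3.11.15).

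The members and lists were chosen with earlier results of these data known. Values in every library are given for 14 members, which are those past an adjusted p of 0.05 with or without the block or at an unadjusted p under 0.01 in any comparison, together with Atf4, Ddit3, Trib3, Asns, Phgdh, Psat1, Shmt2, Mthfd2 and Aldh1l2, some of which met both conditions. The other 22 are given by ranges and counts. Of each further list, called genes and the gene with the smallest p are named, except 1 that is not reported here, and Herpud1, Ero1l and Krt8 were named after their values were seen. The replicate numbers come from the library titles. Same-numbered libraries deviated together in LAP and EV (r of the deviations from the group means over 11535 genes 0.22 to 0.55) and in LIP and LAP (0.42 to 0.58), but not in all of LIP and EV (-0.12 to 0.31). Blocked values are therefore given beside LIP against LAP. Alternatives were DESeq2's size factors, total counts alone, filterByExpr, at least 10 counts in every library, DESeq2 1.42.0, the edgeR exact test, a model of all 9 libraries, the replicate block and each library left out.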

Additional observations from a re-analysis of the deposited data

Results flagged for a closer look

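For 7 members the effect of LIP differed from that of LAP in the direct test with the replicate number as a block (edgeR's quasi-likelihood test, adjusted p under 0.05 over all genes), which is why they are listed for a closer look. On the log2 scale LIP minus LAP was -0.64 for Ddit3, -0.90 for Nupr1, -0.66 for Psph, -0.84 for Aldh1l2, -1.40 for Cth, -0.72 for Slc7a11 and -1.65 for Stc2. Over all genes, 4.79% were called lower with the block and 0.837% without it. Without the block 0 of these 7 passed. At an unadjusted p under 0.05 without the block, 8 members were lower, against 5.98% of all genes. The LIP library was below the LAP library of the same number in 3 of 3 numbers for 6 of the 7 and in 2 of 3 for Aldh1l2. The fit with the block, which picked the 7, uses these same differences, so this only describes them. The sources used here do not say whether same-numbered libraries were prepared together.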

How the results depend on the processing

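The median log2 fold change of the members moved by less than 0.145 under every alternative tried. This is the SD within groups of the median deviation of 34 members in single libraries, and it does not measure the error of a fold change. In LIP against EV the median fold change was -0.31 and lay between -0.45 and -0.18 under the alternatives. In LIP against LAP it was -0.30 and lay between -0.35 and -0.19. In both, the smallest size came without LIP library 2. Counts of calls moved more. In LIP against EV, 72 genes were called, and 36 with total counts, 4 with filterByExpr, 0 with at least 10 counts in every library (816 lower and 497 higher at p under 0.05 before adjustment), 321 with DESeq2's Wald test, 301 with the edgeR exact test, 467 with the replicate block (402 lower) and 22 to 367 with a library left out. The 2 members called became 1 with DESeq2's size factors (Aldh1l2), 0 with total counts, filterByExpr or at least 10 counts (5 to 7 members lower at an unadjusted p under 0.05 in edgeR), 1 with all 9 libraries in a single model (Slc7a11), 5 with the replicate block (Aldh1l2, Cth, Nupr1, Slc7a11 and Stc2) and 0 to 3 with a library left out. Aldh1l2, Nupr1 and Slc7a11 passed with DESeq2's Wald test and with the edgeR exact test. Same-numbered LIP and EV libraries had r of 0.31, -0.12 and 0.24 under numbers 1, 2 and 3, so pairing was not uniform. LIP libraries 1 and 3 correlated best with the EV library of their own number and LIP library 2 did not.

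In LAP against EV, 11 genes were called, and 3 with filterByExpr, 0 with at least 10 counts (131 lower and 128 higher at p under 0.05 before adjustment), 26 with DESeq2's Wald test, 33 with the exact test, 3 with all 9 libraries, 54 with the replicate block and 6 to 62 with a library left out. In LIP against LAP, 190 genes were called, and 113 with total counts, 2 with filterByExpr, 0 with at least 10 counts (675 lower and 406 higher at p under 0.05 before adjustment), 1183 with the replicate block and 7 to 448 with a library left out. The same comparison had 198, 184 and 154 genes called lower with DESeq2's Wald test, the exact test and all 9 libraries. Members called there were 0, and 1 with DESeq2's Wald test, the exact test or all 9 libraries (Nupr1 each time), 7 with the replicate block and 0 to 4 with a library left out. The block changed no other call of a member. The cause of these shifts was not tested.

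The sign changes that follow are those of the 14 members given in every library. Other members changed sign too, such as Gpt2 in LIP against EV, from 0.013 to -0.065 with the block. Phgdh in LAP against EV was at 0.00056 with filterByExpr and 0.0012 with at least 10 counts. With a library left out, LAP against EV ranged from -0.072 to 0.039 for Phgdh, -0.50 to 0.93 for Stc2, -0.030 to 0.15 for Shmt2, -0.12 to 0.33 for Nupr1, -0.20 to 0.61 for Cth, -0.046 to 0.46 for Psph, -0.040 to 0.25 for Atf4, -0.10 to 0.27 for Psat1 and -0.28 to 0.026 for Mthfd2. LIP against EV ranged from -0.23 to 0.050 for Atf4, and LIP against LAP from -0.29 to 0.12 for Mthfd2. Of 588 values of the same 14 members under alternatives, 530 kept their direction and side of the threshold. Of these, 184 were in LAP against EV, where no member was called. Another 18 values lost a call, all of them of Aldh1l2 or Nupr1 in LIP against EV. With 3 libraries a group, precision is limited to the 95% intervals given, and Aldh1l1 and Cbs were too low to compare.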

Other observations

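Of the 36 members, 22 have a single curated RefSeq transcript and 14 have more. Over all genes matched to RefSeq, the upper quartile of the mean count was 1219 for genes with 1 curated transcript, 890 for genes with 2 and 793 for genes with 3 or more. The share of genes with a mean count of 1 or more went the other way, at 63.9%, 79.2% and 81.1%. Gapdh, with 2 transcripts, had 2425 to 4539 counts per library and Actb, with 1, had 65537 to 140834, while Vegfa, with 10, was listed at 0 in every library. These 3 genes were picked after their values were seen. The cause was not tested, and a 0 in this table is not read as a gene that is off. Over the 22 members with a single transcript, the median log2 fold change of LIP against EV was -0.35, beside -0.31 over all 36, and both called members were among them.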
